A study of Mus musculus with 2 samples.

Results

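The C1q-positive resident macrophages described here were 55 cells, 50 from a control library and 5 from an orthodontic tooth movement (OTM) library, of 4887 mouse alveolar bone cells that passed the quality filter. Members were chosen by the share of a cell's unique molecular identifiers (UMIs, the counted RNA molecules) that came from C1qa, C1qb and C1qc together, which had to be at least 0.05%. They were also chosen by what they lacked, with S100a8 and S100a9 under 5% of UMIs, the granule genes Elane, Mpo, Prtn3 and Ctsg under 1%, and the division genes Mki67, Top2a, Birc5 and Ube2c under 0.04%. The C1q genes and these limits were therefore inputs to the choice and are not findings. Both libraries held F4/80+CD11b+ cells sorted from collagenase-digested alveolar bone of male C57/B6 J mice aged 8 weeks. In the OTM group a molar had been tied to the incisors with a nickel-titanium coil spring for a week, and no device is described for the control group. There was 1 library per group, the number of mice that went into each is not stated, and no label ties a cell to its mouse. So no test between the conditions could be made, and the counting intervals given below (95%, exact) cover counting error only, not differences between mice.

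C1q is the recognition part of the classical complement pathway, built from A, B and C chains encoded by 3 neighbouring genes. Unlike most complement proteins, which the liver makes, C1q is made largely by tissue macrophages, where it tags dying cells and synapses for uptake. In bone and marrow, macrophages with VCAM1, heme oxygenase and ferroportin take up aged red cells and return their iron, while osteoclasts, which arise from the same myeloid lineage, dissolve mineral through TRAP, cathepsin K and an acid-secreting proton pump.

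The chain genes lie together on mouse chromosome 4 in 18675 bases of the minus strand (GRCm38.p6), C1qb at chr4:136880129-136886187, C1qc at chr4:136889804-136893065 and C1qa at chr4:136895917-136898803. The upstream sequences of C1qb and C1qc are shown because these genes defined the cells, taken from RefSeq for GRCm38.p6, read 5′ to 3′ on the minus strand. Capitals mark matches to GAGGAA, a core bound by ETS factors such as PU.1 of the myeloid lineage, and to TGCTGA, a sequence of the large Maf factors, each searched on both strands, and the motifs did not overlap. The C1qb stretch, chr4:136886201-136886450, held both motifs as written.
C1qb: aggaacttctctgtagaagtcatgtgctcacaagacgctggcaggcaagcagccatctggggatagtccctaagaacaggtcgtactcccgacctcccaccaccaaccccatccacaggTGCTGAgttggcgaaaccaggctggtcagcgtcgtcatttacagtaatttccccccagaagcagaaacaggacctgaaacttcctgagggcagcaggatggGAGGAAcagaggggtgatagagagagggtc
The C1qc stretch, chr4:136893066-136893164, held GAGGAA as its reverse complement and held no TGCTGA.
C1qc: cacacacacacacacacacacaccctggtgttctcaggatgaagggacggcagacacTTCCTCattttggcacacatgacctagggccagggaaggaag
In the 300-base windows of all 32851 RefSeq promoters, 28.3% held GAGGAA and 19.5% held TGCTGA, so these matches are common ones. They describe letters, not binding.

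Each library was a table of UMIs over 27998 genes, with 2863 barcodes in the control and 2058 in the OTM library, of which 2835 and 2052 had at least 200 genes and at most 5% mitochondrial UMIs. Those cells held 14493851 and 16472699 UMIs, a median of 3998 and 6861.5 per cell, so OTM cells were read more deeply. The 50 control members held 200194 UMIs (median 3735, range 1792 to 13882) and the 5 OTM members 33491 (median 5856, range 5244 to 9423). Levels are given as UMIs per 1000000 of the group's UMIs (CPM), at which 3 UMIs, the floor used here, are worth 14.99 CPM in control and 89.6 CPM in OTM members. Cells that met every limit except the C1q one are called C1q-low cells, 1148 in control and 751 in OTM. The libraries shared 6 barcodes, none of them a member. Of the genes encoding the sorting antigens, Adgre1 (F4/80) stood at 219.8 CPM in control members with UMIs in 23 of 50 cells against 99.4 CPM in C1q-low cells, and Itgam (CD11b) at 69.9 CPM in 11 cells against 106 CPM.

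Control members carried a median of 15.5 C1q UMIs (range 1 to 121), or 0.566% of their UMIs (0.0542% to 1.52%). All chains were seen together in 38 of the 50 cells, 33 cells had 10 or more C1q UMIs, and 12 cells rested on 3 or fewer. The 5 OTM members carried 16 to 25 C1q UMIs, 0.170% to 0.401% of their UMIs, and each had all chains. C1qa, C1qb and C1qc gave 36.5%, 38.7% and 24.8% of the C1q UMIs in control members and 40.8%, 34.0% and 25.2% in OTM members, so the chains were captured in much the same proportion in both. The member nearest the limit had 2 C1q UMIs of 3688 (0.0542%), and the nearest cell outside had 6 of 12481 (0.0481%). Of the C1q-low cells, 1101 in control and 724 in OTM had no C1q UMI at all.

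**Figure D1:**
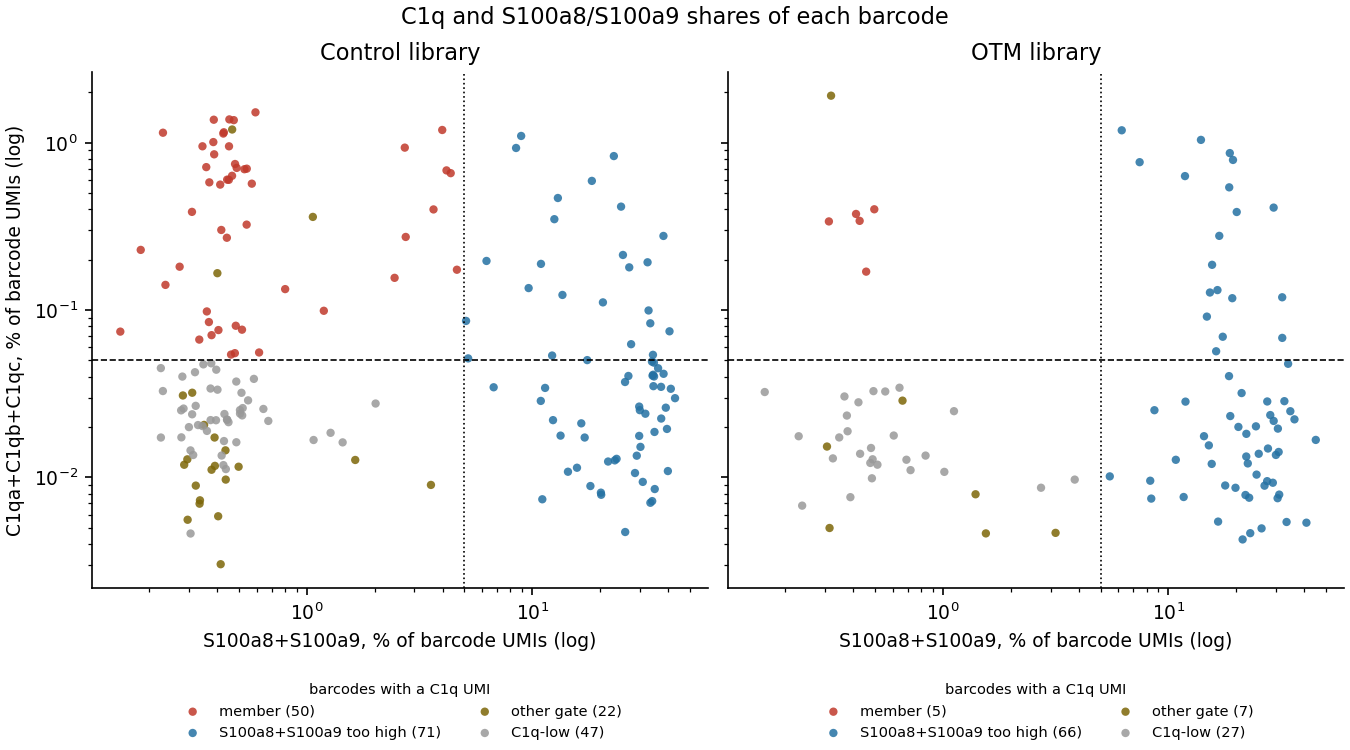
Each point is a filtered barcode with at least 1 C1q UMI, with its share of UMIs from S100a8 and S100a9 on the x axis and from C1qa, C1qb and C1qc on the y axis (both in percent, log axes), control and OTM apart, and lines at the limits of 5% and 0.05%. Control members (50) fill the upper left, while in OTM 5 members stand there and 19 barcodes at or above the C1q limit lie to the right of the S100 line.

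The label was set beside genes that the choice did not use. This is a description, since Vcam1 and Trem2 are markers of the label itself. The study also listed Trem2, Pf4 and Vcam1 as marker genes of a cluster in this same control group. Over control members ordered by C1q share, 26 cells at 0.5% or more carried Vcam1 at 1048 CPM, Pf4 at 870, Ms4a7 at 858, Mertk at 156 and Apoe at 12564 CPM, a set known from resident macrophages. In the 12 cells at 0.05 to 0.1%, where the floor of 3 UMIs is 61.6 CPM, Pf4, Mertk and Trem2 had no UMI, Vcam1 stood at 61.6 CPM, Ms4a7 at 82.1 CPM and Apoe at 1190 CPM, below the 1547 CPM of C1q-low cells. Summed, those 12 cells instead carried the monocyte genes Ly6c2 (1826 CPM), Ccr2 (513 CPM) and Plac8 (6382 CPM). The C1q-low levels were near these, at 2136, 471 and 5762 CPM. In the top bin the same genes stood at 390, 89.2 and 613 CPM. The summed levels of the top bin came from part of its 26 cells, since Apoe was seen in 24, Ms4a7 in 17, Vcam1 in 11, Mertk in 10, Trem2 in 9 and Pf4 in 7 of them. In the lowest bin Apoe was seen in 11, Ms4a7 in 3 and Vcam1 in 2 of the 12 cells. These cells were not alike. Ly6c2 had 10, 27, 24 and 19 UMIs in some of them and at most 3 in any other. The MHC class II gene H2-Aa had 68, 112, 95 and 159 UMIs in others, which held 0 or 1 Ly6c2 UMI. Part of the cells of high C1q share thus carried the genes of the label. The data went against the label in the lowest bin, where "C1q-positive" by the rule is as far as the data go. The 5 and 7 cells of the middle bins lay between for Plac8 (4755 and 2791 CPM) and Ms4a7 did not follow that order (49.5 and 361 CPM). The bins are ranges of the measure that chose the cells.

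**Figure D2:**
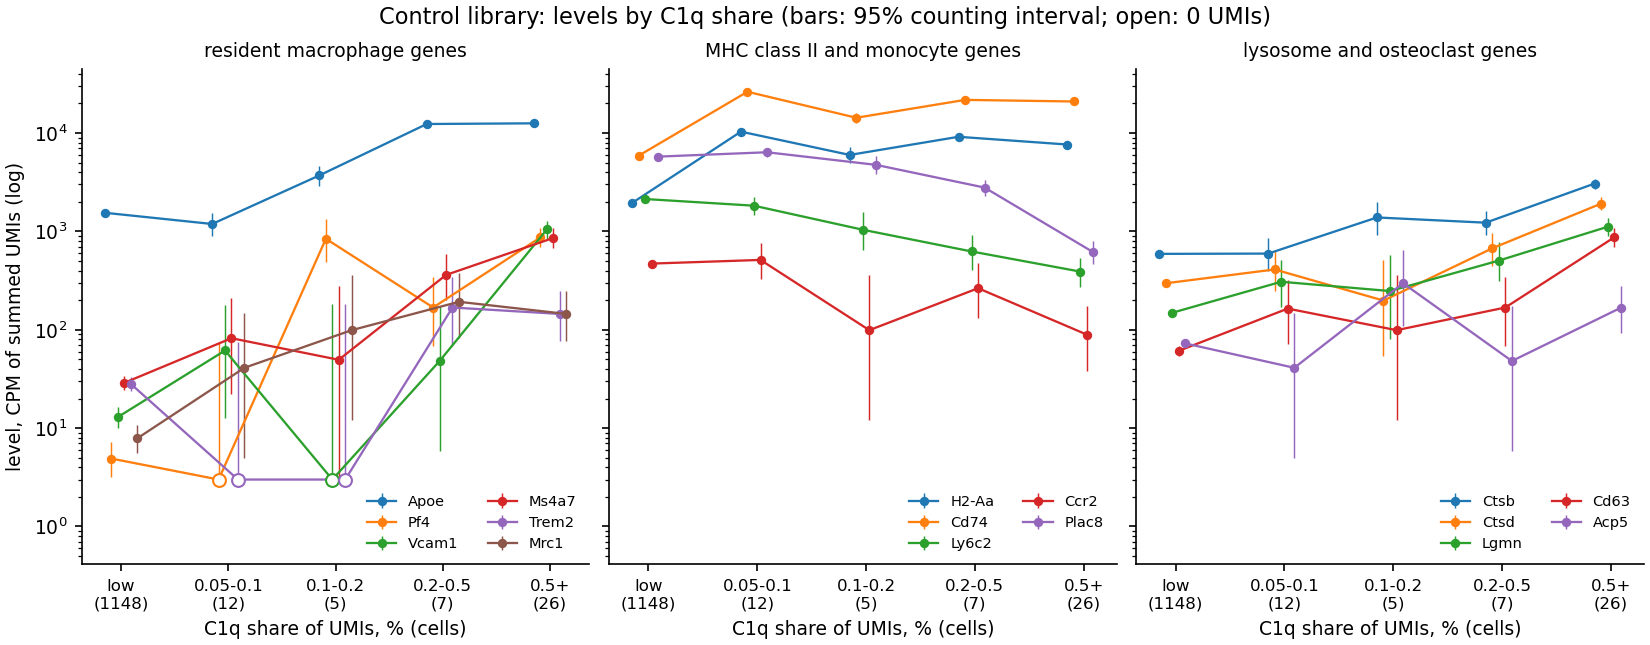
Levels in CPM (log axis) of resident macrophage, MHC class II and monocyte, and lysosome and osteoclast genes are drawn for control C1q-low cells (1148) and for members in 4 bins of C1q share (12, 5, 7 and 26 cells), with 95% counting intervals and open marks at 3 CPM for 0 UMIs. Vcam1 climbs to 1048 CPM in the top bin while Plac8 goes down from 6382 to 613 CPM.

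Trem2, a lipid-sensing receptor, and Vcam1, an adhesion molecule, were the label markers outside the C1q genes. Control members held 20 Trem2 UMIs in 12 cells (99.9 CPM against 28.2 in C1q-low cells, ratio 3.54, 2.10 to 5.67), and Vcam1 stood at 494.5 CPM in 15 cells against 12.9 (ratio 38.2, 27.7 to 53.0). With every cell thinned to 1500 UMIs, Vcam1 was seen in 26% of control members, 1.22% of C1q-low cells and 1.90% of the S100-rich cells set aside by their S100 share, which should lack it (unthinned 30%, 2.09% and 5.27%, median depths of 3735, 4081 and 3308 UMIs). Trem2 was seen in 10% (3.33 to 21.8), 3.75% and 0.952% of the same cells (unthinned 24%, 6.88% and 2.49%). So the Vcam1 share lay far from that of the other cells, and Trem2, with 20 UMIs in all, was a sparse marker here.

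Of 2142 genes with a mean level of at least 50 CPM, 185 were at least 2-fold higher in control members than in C1q-low cells (8.64%) and 88 at least 2-fold lower (4.11%). With TMM scaling the split was 134 higher and 178 lower, and with totals free of hemoglobin, ribosomal and mitochondrial genes 198 and 158. The same cells set the groups and gave the levels, so these counts describe the members and nothing is read from them. The shares of 8.64% and 4.11% are the background for the list counts against C1q-low cells below. Taking the smaller ratio of both libraries, the 15 genes that led were C1qb, C1qc, C1qa, Pf4, Vcam1, Ms4a7, Rgs1, H2-Aa, H2-Eb1, H2-Ab1, Sepp1, Aif1, Cd74, Bcl2a1b and Sdc4. Rgs1, which dampens chemokine receptor signalling, stood at 1389 CPM (6.68-fold over C1q-low control cells), and Sepp1, now Selenop, which carries selenium out of cells, at 694 CPM (4.01-fold). Aif1, the actin-binding protein IBA1 used to stain macrophages, stood at 889 CPM (3.86-fold).

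Of 26 resident macrophage genes, 12 reached 50 CPM and 10 of them were at least 2-fold higher in control members, with none 2-fold lower and a median log2 ratio of 2.79 against -0.02 over all 2142 genes. Pf4, a chemokine also stored in platelets, stood at 509.5 CPM in 10 cells against 4.90 CPM in C1q-low cells, and Ms4a7, a membrane protein of macrophages, at 484.5 CPM against 28.8. The receptors for dying cells Axl (199.8 CPM, 11.6-fold) and Mertk (69.9 CPM, 119-fold with an interval of 33.2 to 645), and the mannose receptor Mrc1 (124.9 CPM in 13 cells, 15.9-fold), were likewise higher, as was Apoe, the lipid carrier, at 8861 CPM in 46 cells (5.73-fold). Several other genes of the same resident macrophage list were scarce and so did not bear out the label. Lyve1, Vsig4, Siglec1 and Mafa had no UMI in control members, Cd163 had 1, Folr2 and Cd5l had 2 each, and Timd4, a receptor for dying cells, had 6 in 3 cells.

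Iron and heme genes were led by Slc40a1, encoding the iron exporter ferroportin, at 134.9 CPM against 1.96 CPM in C1q-low cells (68.8-fold, 32.3 to 159), by Spic, a transcription factor of red-cell-clearing macrophages, at 119.9 CPM against 4.90, and by Hmox1, heme oxygenase, at 584 CPM in 30 cells against 177 (3.30-fold). Of the 18 genes of the list 12 were measured, 5 were 2-fold higher and none lower (median log2 0.87). The ferritin genes Ftl1 (1.83-fold) and Fth1 (1.20-fold), which store iron, differed less.

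These genes were not spread evenly. The 15 control members with a Vcam1 UMI (50115 UMIs, median 3420 a cell) carried Slc40a1 at 519 CPM, Spic at 399, Hmox1 at 1616, Mertk at 259 and Axl at 459 CPM. The 35 without one (median 3777 UMIs a cell) carried Slc40a1 at 6.66 CPM, Spic at 26.7, Hmox1 at 240, Mertk at 6.66 and Axl at 113 CPM. Slc40a1 was seen in 10 control members, 9 of them with Vcam1, Spic in 12 with 9 of them, and Timd4 in 3, all of them with Vcam1. Gdf15, a stress-induced growth factor, had 116 of its 117 UMIs in Vcam1 cells, and Fabp4, a fatty acid carrier, stood at 1217 CPM in them against 46.6. A few cells carried much of this, since 5 cells held 86.3% of the Gdf15 UMIs, 95.6% of the Fabp4 UMIs and 63.6% of the Vcam1 UMIs. Of 1248 genes with a mean of at least 100 CPM over these cells, 178 (14.3%) were 2-fold higher and 71 (5.69%) 2-fold lower with Vcam1. Against that background, 6 of 9 iron and heme genes, 7 of 11 lipid genes and 6 of 21 lysosomal hydrolase genes were 2-fold higher. Cx3cr1, the fractalkine receptor, went the other way, with no UMI in the Vcam1 cells and 246.5 CPM in the rest. However, 3 of the cells without Vcam1, described below, held 37.8% of its UMIs. H2-Aa stood at 5587 CPM in the Vcam1 cells against 9408 CPM. The split was made on a gene of the same cells and is a description. The 15 cells with Vcam1 had a median C1q share of 0.700%, and the 35 without it 0.274%. Most of the 12 cells of lowest C1q share had no Vcam1 UMI, so Vcam1 and C1q share were not told apart.

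**Figure D3:**
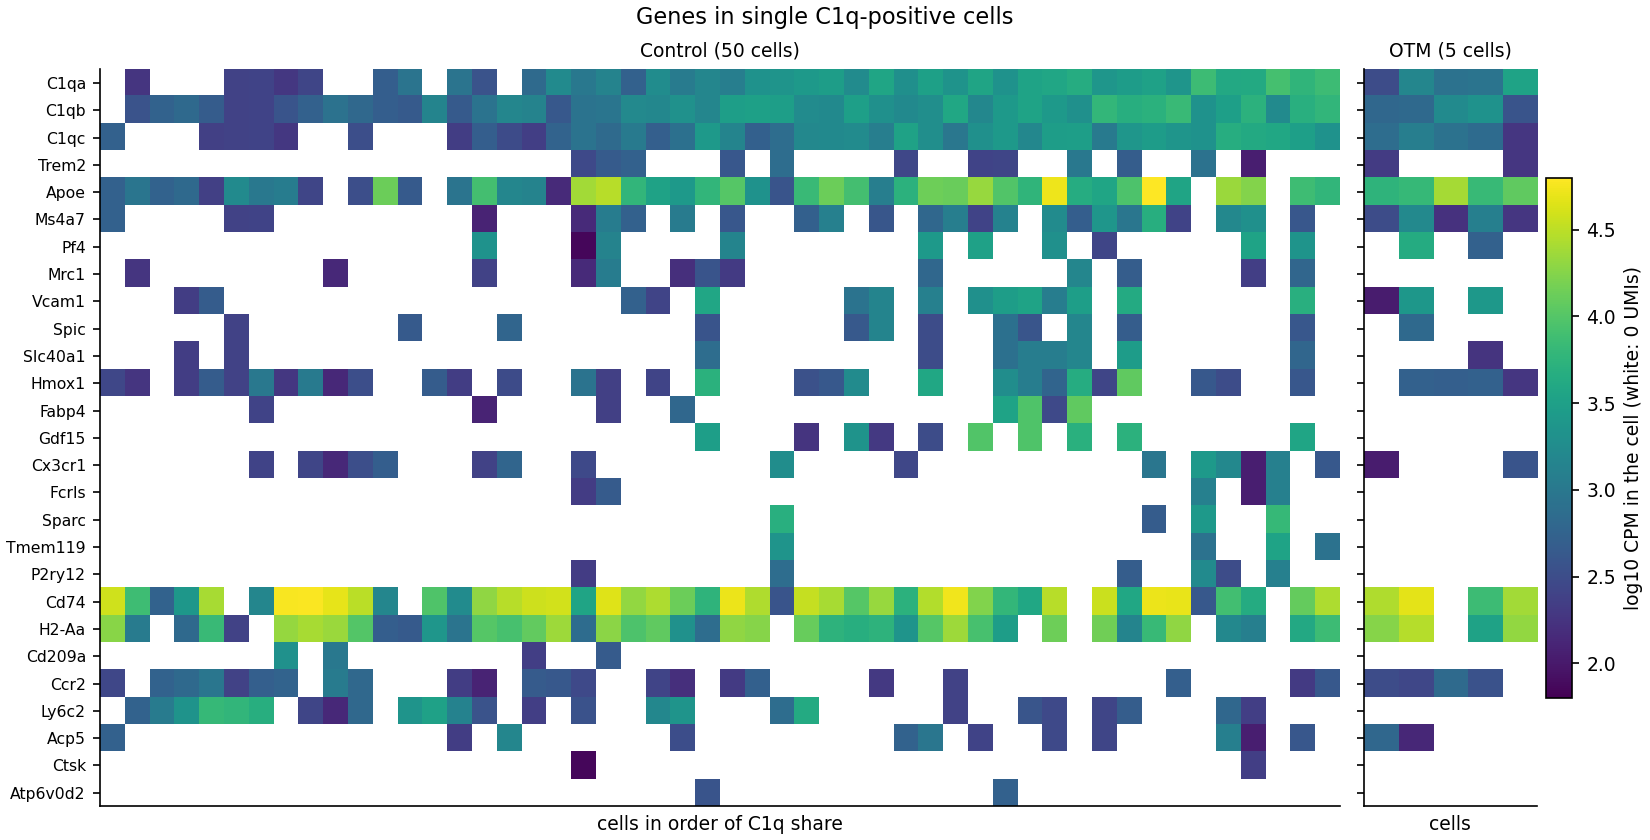
Columns are the 50 control and 5 OTM members in order of C1q share and rows are 27 genes, with colour for log10 CPM in that cell and white for 0 UMIs. Slc40a1, Spic and Gdf15 appear mainly in columns that also hold Vcam1, and Sparc in 4 control columns that do not, 1 of them with 1 UMI.

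Another 3 control members, named here after their values were seen, held UMIs of P2ry12, Tmem119 and Sparc together, genes known from microglia, the macrophages of the brain, although Sparc is also a bone matrix gene. No other filtered cell of either library held all of these genes. The cells had 2664, 2336 and 2329 UMIs and 16, 27 and 32 C1q UMIs. They held 34 of the 35 Sparc UMIs of control members, 16 of 18 Tmem119 UMIs, 9 of 14 P2ry12 UMIs and all 5 Siglech UMIs. Vcam1, Pf4, Ms4a7, Mrc1, Ccr2 and H2-Aa had no UMI in them, and Apoe had 1. Where they came from was not tested. Without them Trem2 stood at 83.0 CPM in the other 47 control members, 2.94-fold over C1q-low cells (1.64 to 4.94).

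Among osteoclast genes, the ones most particular to osteoclasts were at or near the counting floor of 14.99 CPM, and others that myeloid cells share were well above it. Of 33 genes of the list 8 reached 50 CPM and 2 of them, Fos and Mmp9, were 2-fold higher in control members than in C1q-low cells, with none lower (median log2 0.49). Acp5, which encodes the acid phosphatase TRAP, had 25 UMIs in 12 control members (124.9 CPM against 72.6, ratio 1.72, 1.099 to 2.58). Ctsk, the collagen-cleaving cathepsin K, had 3 UMIs in 2 cells (14.99 CPM against 23.9), and Atp6v0d2, the proton pump subunit of osteoclasts, had 3 UMIs in 2 cells (14.99 CPM against 8.43). Dcstamp, needed for osteoclast fusion, had 4 UMIs (7.84-fold, 1.86 to 25.4) and Nfatc1, the osteoclast transcription factor, had 5 (24.98 CPM against 16.5). Tnfrsf11a, encoding the RANKL receptor RANK, and Ocstamp, Calcr, Oscar, Car2, Src and Siglec15 had no UMI in any control member, which at this depth allows a level of up to 14.99 CPM. Acp5 and Ctsk met in 1 control cell.

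Mmp9, a gelatinase, stood at 84.9 CPM in control members against 26.5 in C1q-low cells (3.21-fold, 1.82 to 5.33), but at 571 CPM in the S100-rich cells that the limit set aside. The neutrophil list includes S100a8, S100a9, Elane and Mpo, which the choice of cells limited, so its sum is partly set by that choice. It summed to 16584 CPM in these members against 9152, although the median cell stood at 7747 and 7083 CPM. Ly6g, a defining neutrophil gene, had 2 UMIs. The part of that list in the Mmp9 level was not tested. Fos, an immediate early gene that osteoclasts need, stood at 2173 CPM (2.84-fold), the receptor for macrophage growth factor Csf1r at 294.7 CPM (1.41-fold), and the adaptor Tyrobp at 3252 CPM (0.827-fold). The pump subunit Tcirg1 (84.9 CPM, 1.34-fold) and the sorting nexin Snx10 (119.9 CPM, 1.33-fold) were also under 2-fold.

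Lysosomal hydrolases were higher in part. Of 50 hydrolase and cathepsin genes 26 were measured, 9 were 2-fold higher and none 2-fold lower (median log2 0.47). The proteases Ctsb (1913 CPM in 45 cells against 591, 3.24-fold, 2.90 to 3.60), Ctsd (1119 against 297, 3.77-fold) and Lgmn (704 against 149, 4.72-fold) were abundant ones among them. Pla2g15, a phospholipase of lysosomes, stood at 94.9 CPM against 8.63 (11-fold, 6.06 to 19.2). Other abundant members of the list hardly differed. Ctss, which trims the invariant chain for MHC class II loading, stood at 2742 CPM (1.25-fold), the saposin precursor Psap at 3067 CPM (1.22-fold), Ctsc at 0.986-fold and Ctsh at 1.02-fold.

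Of 37 lysosomal membrane and acidification genes 24 were measured, 4 were 2-fold higher and none lower (median log2 0.31). Cd63, a tetraspanin of late endosomes, led at 474.5 CPM against 61.2 (7.75-fold), and the macrophage marker Cd68 stood at 304.7 CPM (1.79-fold). The main membrane proteins did not differ by as much, with Lamp1 at 564.5 CPM against 563.5 (1.00-fold), Lamp2 at 0.778-fold and the cholesterol carrier Npc2 at 0.728-fold, nor did the proton pump subunits Atp6v0b (0.893-fold), Atp6v1g1 (1.09-fold) and Atp6v1f (1.38-fold). Gpnmb, a membrane protein of lipid-laden macrophages, had no UMI. Ctsd and Ctsb were also unequal within the members, at 2474 and 3672 CPM in the Vcam1 cells against 666 and 1326 CPM in the rest. CACGTG, the core of the motif through which TFEB acts on lysosomal genes, was present in the promoter window of 12 of 41 hydrolase genes with a RefSeq entry (29.3%) and 9 of 31 membrane genes (29.0%), against 8.09% of all 27025 genes with one (counted per gene, a palindrome that reads the same on both strands).

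**Figure D4:**
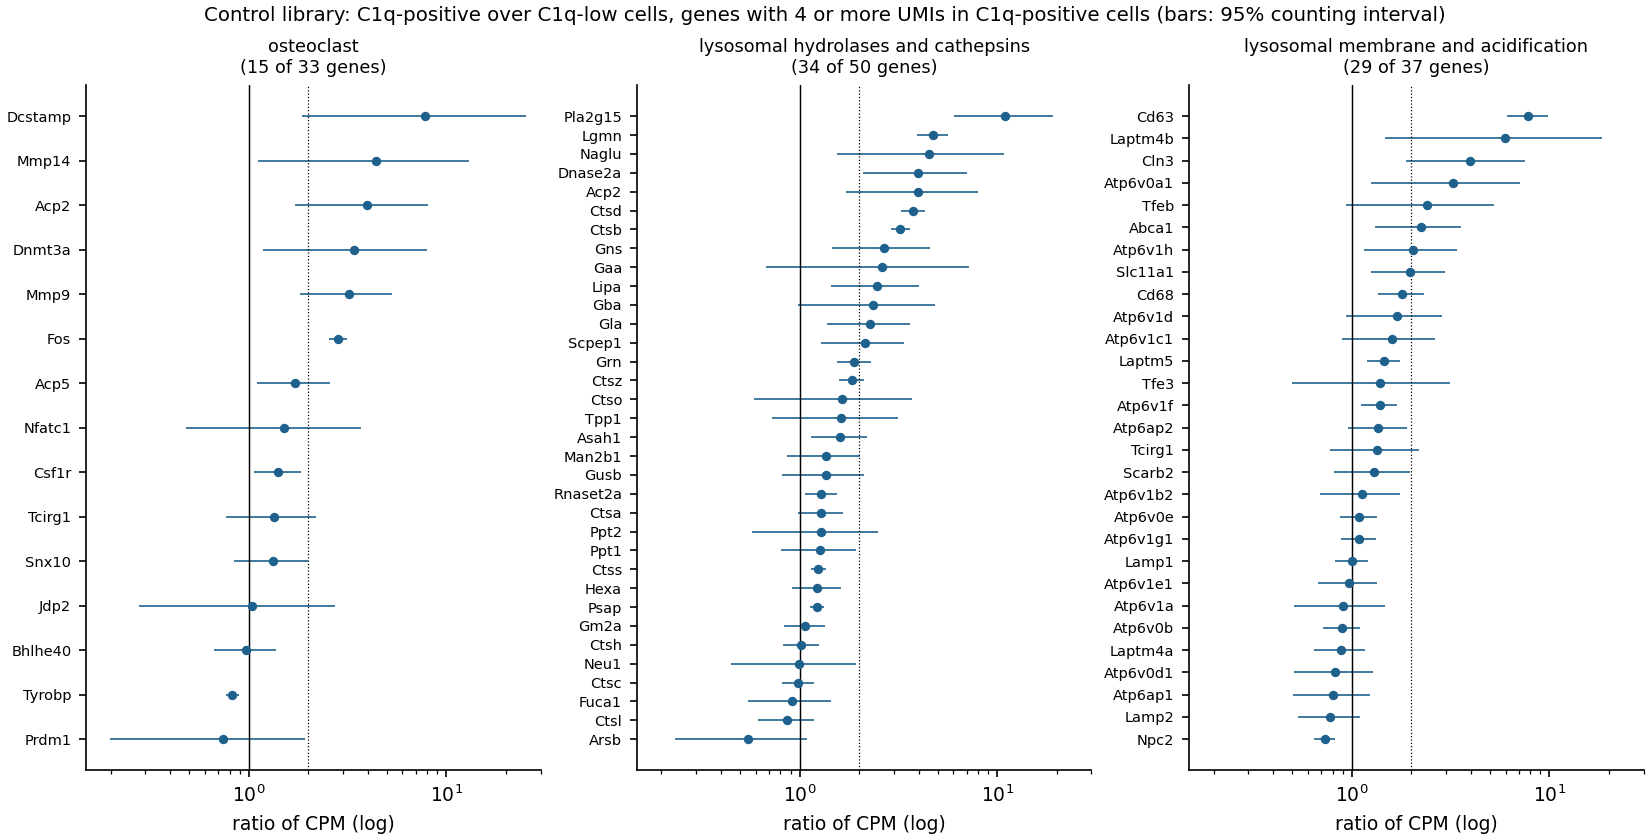
Points give the ratio of control members to C1q-low cells (log axis, 95% counting intervals, dotted line at 2) for genes with at least 4 UMIs in control members, with 15 of 33 osteoclast, 34 of 50 hydrolase and 29 of 37 membrane genes plotted. Ctsb, Ctsd, Lgmn and Cd63 lie beyond the line and Lamp1 lies at 1.00.

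Genes for taking up dying cells, complement and lipid handling were counted too, beside the 8.64% of all 2142 genes that were 2-fold higher. These lists share genes with those above and are not separate counts. Axl, Mertk, Mrc1 and Trem2 are also uptake genes, and Apoe and Trem2 are also lipid genes. Of 31 uptake genes 17 were measured, 7 were 2-fold higher and none lower (median log2 0.67), among them the integrins Itgb5 (5.62-fold) and Itgav (3.80-fold), while the antibody receptor Fcgr1 was at 1.51-fold. Of 18 complement genes 9 were measured, the chosen chains included, and 5 were 2-fold higher, or 2 of 6 without the chains (median log2 0.41). These 2 were C3ar1, the receptor for C3a, at 99.9 CPM against 2.16 (46.3-fold) and Cfp, properdin, at 354.7 CPM against 140.4 (2.53-fold). Of 18 lipid genes 12 were measured and 7 were 2-fold higher (median log2 1.27), with the cholesterol exporter Abcg1 at 4.33-fold, Lpl, lipoprotein lipase, at 159.8 CPM against 32.2 (4.97-fold) and Fabp4 at 339.7 CPM against 47.1 (7.22-fold). Lgals3, a lectin of inflammatory macrophages, was at 0.544-fold.

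MHC class II genes, which present antigen to helper T cells, were higher at high absolute levels. Of 6 measured genes of the list 4 were 2-fold higher (median log2 1.96), beside 8.64% of all 2142 genes. The levels were 8452 CPM for H2-Aa against 1949 in C1q-low cells (4.34-fold), 8247 CPM for H2-Ab1 and 2288 CPM for H2-Eb1. The invariant chain Cd74 stood at 21749 CPM against 5891 (3.69-fold). H2-Aa stood at 10342 CPM in the 12 cells of lowest C1q share and at 7648 CPM in the 26 of highest, so it did not follow the C1q share. Cd209a, a lectin of monocyte-derived dendritic cells, stood at 369 CPM in the lowest bin and had no UMI in the highest. It was seen in 4 of the 50 control members, and single cells with 11 and 7 UMIs made up the lowest bin's level. The dendritic cell list summed to 774 CPM in members and 564.5 in C1q-low cells.

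Monocyte genes were lower. Of 22 genes 20 were measured, 10 were 2-fold lower and 1 higher (median log2 -1.01), beside 4.11% lower and 8.64% higher of all 2142 genes. Ly6c2 stood at 854 CPM against 2136 in C1q-low cells (0.400-fold), the chemokine receptor Ccr2 at 229.8 CPM against 471 (0.488-fold), and the chitinase-like Chil3 at 0.249-fold, while lysozyme, Lyz2, still stood at 13312 CPM (0.550-fold). Red cell genes summed to 464.5 CPM against 11890, but a few cells carried the latter (highest 949652 CPM), and the median cell stood at 367.6 CPM in members and 296 in C1q-low cells. Lists of B cells (45.0 CPM), T and NK cells (94.9 CPM) and mast cells (0 CPM) were low. Stromal genes summed to 244.8 CPM against 75.3, of which 35 of 49 UMIs were Sparc, and Col1a1, Col1a2, Col3a1, Alpl, Sp7 and Ibsp had no UMI. Of 12 measured interferon response genes 2 were 2-fold higher (median log2 0.53), and none of 4 measured cell cycle genes passed 2-fold.

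Of 31 cytokine and chemokine genes 28 were measured, 7 were 2-fold higher and 1 lower (median log2 0.32), beside 8.64% and 4.11% of all 2142 genes. The chemokines Ccl4 (9716 CPM against 1247, 7.79-fold), Ccl3 (2717 against 505, 5.38-fold) and Ccl12 (339.7 against 9.81, 34.6-fold) and the cytokines Tnf (3.00-fold) and Il18 (4.15-fold) were on the higher side. Cxcl2, a neutrophil attractant, was at the C1q-low level (12338 against 12677 CPM), and Il1b was at 1354 CPM against 2214 (0.611-fold). Of 9 measured growth factor genes 2 were 2-fold higher, Gdf15 (584 CPM against 20.2) and Igf1, a growth factor for bone and muscle (114.9 CPM against 1.37, 83.7-fold), and Fn1, fibronectin, was 2-fold lower (list median log2 -0.88). Genes that tissue dissociation is known to induce moved with these chemokines. Of 20 measured immediate early and heat shock genes 10 were 2-fold higher and none lower (median log2 1.05), with Egr1 at 6.20-fold, Jun at 5.45-fold and Atf3 at 4.18-fold. Their part in the chemokine levels was not tested.

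The control and OTM libraries differed in how many cells met the rule. Members made up 4.17% (3.11 to 5.47) of the 1198 control cells past the other limits and 0.661% (0.215 to 1.54) of the 756 OTM cells, or 1.76% and 0.244% of all filtered cells. With every cell thinned to 1500 UMIs and at least 3 C1q UMIs asked for, the shares were 2.84% (1.97 to 3.94) and 0.661% (0.215 to 1.54), in the same order. The limit on S100a8 and S100a9 took unlike shares of the C1q barcodes. Of 78 control barcodes at the C1q limit 25 were set aside for their S100 share (32.1%), and of 25 OTM barcodes 19 were (76%). With every limit but the C1q one dropped, the shares were 2.75% (2.18 to 3.42) and 1.22% (0.790 to 1.79). The S100 limit set aside 1366 of 2835 filtered control cells and 1176 of 2052 OTM cells, and C1q at its limit was met by 25 (1.83%) and 19 (1.62%) of them. What those barcodes are was not tested. In OTM they carried Apoe at 12365 CPM and C1qa at 2097 CPM beside the granule gene Camp at 20326 CPM and Ly6g at 333 CPM. A share of cells cannot tell fewer cells of a kind from more cells of the other kinds in the sort.

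The 5 OTM members were unlike one another, so each is given, numbered by rising C1q share with 9423, 7377, 5856, 5591 and 5244 UMIs. Vcam1 had 1, 18, 0, 14 and 0 UMIs, Pf4 0, 33, 0, 3 and 0, and Trem2 2, 0, 0, 0 and 1. Cells 2 and 4 thus carried nearly all of the Vcam1, and cells 3 and 5 carried none. Apoe had 53, 47, 144, 37 and 61 UMIs and Ms4a7 3, 12, 1, 7 and 1, so these genes were present in each. Summed, Vcam1 stood at 985 CPM in OTM members against 494.5 in control members (ratio 1.99, 1.30 to 2.98) and Apoe at 1.15-fold. The Vcam1 direction turned when the S100 limit was dropped (log2 ratio -0.80), and that of Pf4 turned without cell 2 (a ratio of 2.11 with it, a log2 ratio of -1.93 without). Mrc1 and Maf, a transcription factor of resident macrophages, had no UMI in OTM members and stood at 124.9 and 144.9 CPM in control members, near the OTM floor of 89.6 CPM.

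Of 635 genes with at least 50 UMIs over both groups of members, 43 (6.77%) were at least 2-fold higher in OTM and 62 (9.76%) at least 2-fold lower, with a median log2 ratio of 0.10. TMM scaling, fitted on all detected genes, multiplied the totals by 1.17 for OTM and 0.854 for control members. The median of the 635 genes then moved to -0.35, so TMM did not centre them, and the split moved to 12 higher and 121 lower. In C1q-low cells 22 and 16 of the same genes were 2-fold higher and lower, with a median of -0.10. The members' counts are those of 5 cells.

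Of the osteoclast and lysosome genes 29 had enough UMIs to compare, of which none was 2-fold higher in OTM and 3 (10.3%) were lower, a share near the 9.76% of all genes. The 3 osteoclast genes measured were Fos, Csf1r and Tyrobp, which other myeloid cells share. Acp5, Ctsk, Atp6v0d2 and Mmp9 fell under the minimum of 50 UMIs, so genes more particular to osteoclasts were not compared. Of the 3 measured, 1, Fos, was 2-fold lower in OTM (926 against 2173 CPM, ratio 0.426, 0.286 to 0.614) and none higher (list median -0.23). Fos is also a dissociation gene, and 9 of 18 measured genes of that list were 2-fold lower (median -1.03). Acp5 had 6, 1, 0, 0 and 0 UMIs in the OTM cells (209 CPM against 124.9), so 1 cell held nearly all of it. Ctsk, Atp6v0d2 and Mmp9 had no UMI, which the 3-UMI floor of 89.6 CPM puts no lower than the control level. Of 16 hydrolase genes none was 2-fold higher and 1 was lower (median 0.14, with TMM -0.31), and of 10 membrane genes none was higher and 1 lower (median -0.09). Ctsb had 4, 19, 7, 20 and 5 UMIs (1642 CPM against 1913, ratio 0.858) and Lgmn 4, 15, 2, 8 and 2 (926 CPM against 704, ratio 1.31), both highest in the Vcam1-carrying cells 2 and 4. The membrane gene that was lower was Atp6v0e, a pump subunit (ratio 0.455, 0.178 to 0.975), with Atp6v1f next at 0.488, which did not pass once 0.5 UMIs were added. Cd63 had 15 UMIs, all in cell 2, and Lamp1 was at 1.59-fold (1.02 to 2.39).

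The gene with the highest ratio was Saa3, an acute phase protein that macrophages make under inflammation, with 2, 1, 295, 1 and 0 UMIs (8928 CPM against 265 in control members, ratio 33.7, 25.1 to 46.1). Cell 3 held nearly all of it, at 5.04% of its UMIs, and also held 209 of the Chil3 UMIs (13, 0, 209, 1 and 5, ratio 14.2). These are levels of 1 cell, and C1q-low cells differed between the libraries in the same direction (Saa3 23.7-fold, Chil3 7.22-fold). Il1b, the inflammatory cytokine interleukin 1 beta, had 144, 47, 49, 1 and 0 UMIs, or 7196 CPM against 1354 in control members (ratio 5.32, 4.45 to 6.35). Of 50 control cells, all lay below OTM cell 1 (highest 6329 CPM against 15282), while OTM cells 4 and 5, at 178.9 and 0 CPM, lay below the control median of 378.5 CPM. Without cell 1 the log2 ratio of Il1b was 1.58, and in C1q-low cells its ratio was 3.59.

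Among the highest 10 genes Ehd1, Pitpna and Lcn2 had UMIs in every OTM cell. Ehd1, which acts in endosome recycling, was the most even of them. It had 8, 6, 7, 5 and 6 UMIs, 813 to 1195 CPM in every cell, against a control median of 224 CPM (ratio 3.36). Of the 50 control cells 47 lay below all OTM cells and 1 above all, and the ratio in C1q-low cells was 1.47. The rest of the highest 10 were uneven. The lipid droplet gene Hilpda had 31, 0, 7, 1 and 0 UMIs (ratio 4.32, C1q-low 1.09), the stress gene Ier3 43, 12, 10, 0 and 3 (3.45, C1q-low 1.8) and the neutrophil attractant Cxcl1 44, 12, 0, 2 and 0 (3.40, C1q-low 1.88), so cell 1 led each of them. The iron-sequestering Lcn2 had 1, 2, 13, 3 and 2 (4.18, C1q-low 3.93), the lipid transfer protein Pitpna 9, 3, 4, 1 and 3 (3.32, C1q-low 1.25) and the syndecan Sdc4 3, 0, 12, 13 and 0 (2.99, C1q-low 3.32).

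The OTM members filled other bins of C1q share than most control members, with 1 cell at 0.1 to 0.2% and 4 at 0.2 to 0.5%, where control had 5 and 7 of its 50. Of the lowest 10, 7 genes had no UMI in the OTM members, and their folds are bounds at 3 UMIs over the group. Ly6c2 was at least 9.53-fold lower, Gdf15 at least 6.52-fold, the small GTPase Rhob at least 4.24-fold, Fabp4 and Ccl12 at least 3.79-fold each, and the niacin receptor Hcar2 and the chemokine Ccl5 at least 3.68-fold each. In control members these were themselves held by part of the cells, Ly6c2 by 26 of 50, Rhob by 22, Ccl12 by 12, Hcar2 and Ccl5 by 11, Gdf15 by 10 and Fabp4 by 8. Of these, Gdf15 had all 117 UMIs, and Fabp4 61 of 68, in control cells at 0.5% C1q or more, a bin with no OTM cell, and Gdf15 had none in the 12 control cells of the bins that the OTM cells fill. Ccl12 likewise had most of its control UMIs in cells at 0.5% C1q or more. For such genes the library and the C1q share cannot be told apart. In C1q-low cells the ratios were 0.896 for Ly6c2, 0.202 for Gdf15, 0.311 for Rhob, 0.177 for Fabp4, 2.32 for Ccl12, 0.903 for Hcar2 and 1.68 for Ccl5.

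The remaining 3 were Atf3 (0, 1, 0, 0 and 0 UMIs, ratio 0.0399), Jun (1, 0, 1, 0 and 0, ratio 0.0536) and Ccl3 (0, 0, 0, 0 and 6, ratio 0.0659). The first pair are immediate early transcription factors, and the dissociation and heat shock list as a whole stood lower in OTM members, with 9 of 18 genes 2-fold lower and 1 higher (median -1.03) beside 2 lower and none higher in C1q-low cells (median -0.33). Ccl4 was lower as well (ratio 0.270), whereas in C1q-low cells Ccl4 and Ccl3 were higher in OTM (2.32 and 1.82). The cytokine list as a whole gave 6 of 22 genes higher and 6 lower (median 0.12). Over all 635 genes compared between the members, 6.77% were higher and 9.76% lower. The neutrophil list was lower too, 7883 CPM summed against 16584 with 4 of 8 genes 2-fold lower. That list includes S100a8 and S100a9, which the choice of cells limited. How far these lists bear on the chemokine ratios was not tested.

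MHC class II genes did not pass 2-fold between the members of both libraries. In OTM members H2-Aa was at 15288 CPM against 8452 in control members (ratio 1.81), H2-Eb1 at 1.66, H2-Ab1 at 1.26 and Cd74 at 1.07, with a list median of 0.49 over 6 genes. In C1q-low cells the ratios of H2-Aa, H2-Eb1, H2-Ab1 and Cd74 were 0.479, 0.264, 0.354 and 0.480. There 4 of the 6 genes were 2-fold lower, beside 2.52% of all 635 genes. With TMM scaling the members' log2 ratios of H2-Aa and H2-Eb1 were 0.40 and 0.28, while those of H2-Ab1 and Cd74 turned to -0.13 and -0.35, at or above the -0.35 of all genes. The difference between these ratios was not tested, and H2-Aa was 18041, 29145, 0, 3398 and 20595 CPM in the 5 cells, so cells 1, 2 and 5 carried it and cell 3 had none. Fcgr2b, the inhibitory antibody receptor, had 5, 3, 1, 1 and 2 UMIs, at least 1 in every OTM cell (ratio 5.98, 2.46 to 14.6). It was seen in 9 of 50 control cells, with at most 2 UMIs in a cell. Its UMIs thus fell under the minimum of 50 over both groups, and it was not among the 635 genes compared. The 42 control cells below all OTM cells thus mostly had no UMI. The lowest OTM level, 170.8 CPM, was 1 UMI, and OTM members were read more deeply (median 5856 against 3735 UMIs). The receptor for C5a, C5ar1, was also in every OTM cell with 9, 7, 12, 2 and 4 UMIs (ratio 2.48), and Cfp was at 2.11.

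**Figure D5:**
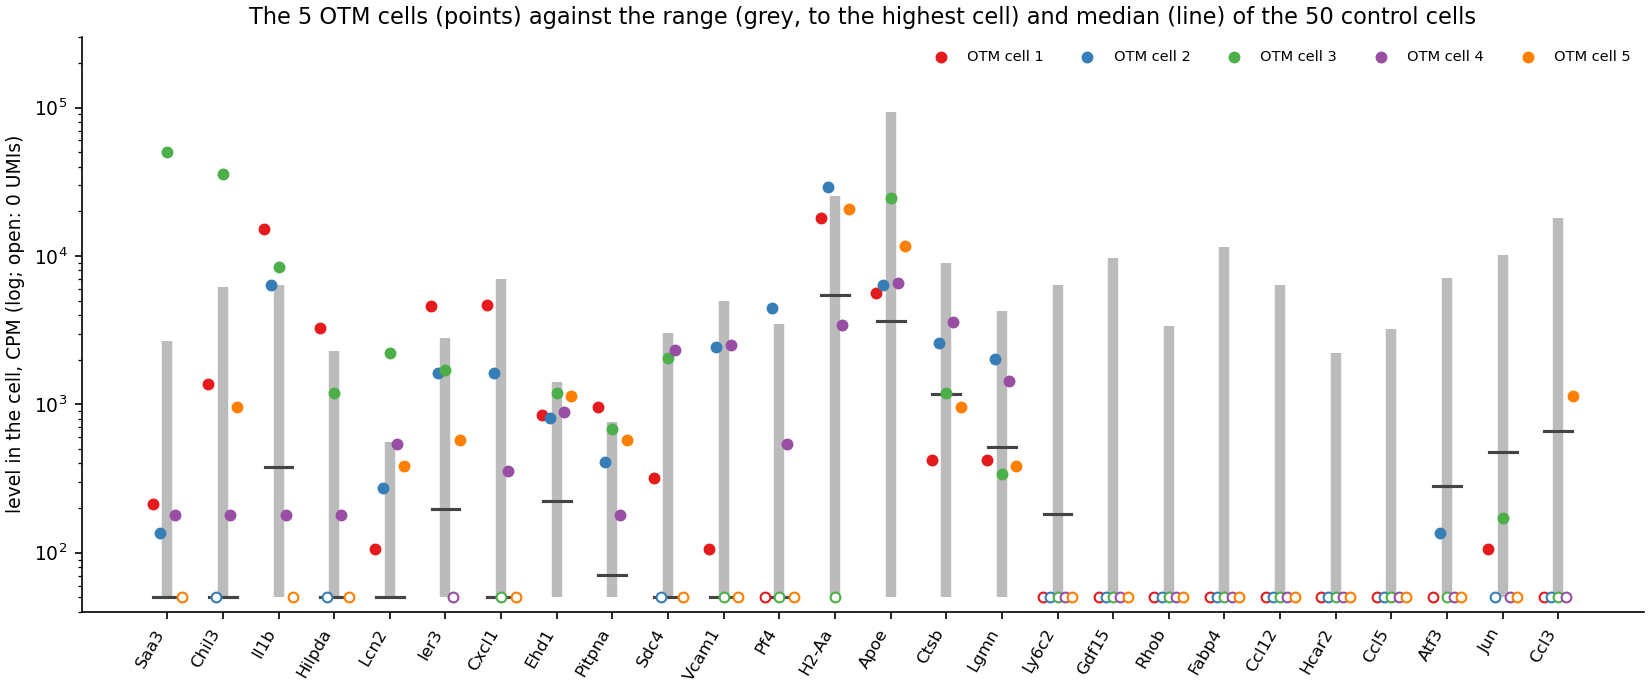
Points are the 5 OTM members' levels in CPM (log axis, open marks at 50 CPM for 0 UMIs) for each gene, over grey lines that reach to the highest of the 50 control members and marks at their median. Saa3 stands out in cell 3 (50376 CPM), Il1b in cell 1 (15282 CPM), and Ehd1 lies between 813 and 1195 CPM in all OTM cells.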

How the data were processed

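Single cells were profiled with the 10x 3′ v2 chemistry, 1 library per group. The deposited tables hold UMI counts per gene and barcode, made by the authors with Cell Ranger 3.0.0 on mm10 (tools and build from the submitters' processing notes, which also name Seurat 3.0.0), with no normalization. The tables hold 2863 control and 2058 OTM barcodes, each fewer than the cell number the study gives for that library, and the filters were applied to all of them. Depth was a median of 3998 and 6861.5 UMIs per filtered cell in control and OTM.

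Barcodes with at least 200 genes and at most 5% mitochondrial UMIs were kept, and members were found by the limits stated in the report. UMIs were summed over members and divided by the summed total (CPM). Intervals are exact Poisson for levels, exact conditional binomial for ratios and Clopper-Pearson for shares, all 95%. A fold of 2 was the mark for counts of genes, and log2 ratios used 0.5 UMIs added to each sum. Genes compared with C1q-low cells needed a mean of 50 CPM, and genes compared between OTM and control needed 50 UMIs. No test was run because each group is 1 library, and the code was tested on simulated data. Motifs were searched in RefSeq promoter windows of GRCm38.p6, 250 bases before to 50 after a start. C1qb and C1qc matched an entry there.

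The members and gene lists were chosen with earlier results of these data known. Of 442 list genes 5 were not matched by symbol or identifier. Genes named are list genes taken by level or role, the 15 with the highest ratio over C1q-low cells in both libraries (at least 20 UMIs in each), and the 10 highest and 10 lowest OTM over control ratios. P2ry12, Tmem119, Sparc, Siglech and genes held by few cells were named after their values were seen. Doublets were called with Scrublet in scanpy 1.11.5, which called 0 of 2835 control cells, so it had not worked there, and 137 of 2052 OTM cells, none of them a member. Nothing was removed for it. Alternatives were stricter C1q limits, another S100 limit, thinning to 1500 UMIs, other totals, TMM (edgeR 4.0.16 on the counts), other minimums, a larger pseudocount and leaving out each OTM cell. Python 3.11.15, numpy 2.4.6, pandas 2.3.3, scipy 1.17.1 and R 4.3.3 were used. Results of some genes are not reported here.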

Additional observations from a re-analysis of the deposited data

Results flagged for a closer look

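C1q UMIs also appeared in barcodes set aside for their S100a8 and S100a9 share, which is high in neutrophils, a kind of cell that should lack C1q. Their summed C1q level was 90.8 CPM (84.8 to 97.1) in the OTM library and 62.3 CPM (56.5 to 68.7) in the control library. Of those UMIs 93.4% and 87.7% lay in the barcodes at or above the C1q limit, which numbered 19 of 1176 and 25 of 1366. What those barcodes are was not tested.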

How the results depend on the processing

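No paired analysis was possible because each group is 1 library. The order of the shares (control above OTM) was the same under each limit tried. The share of members was 2.17% in control and 0% in OTM at a C1q limit of 0.5%, which left no OTM cell and so no OTM over control value, and 5.84% and 1.59% after thinning to 1500 UMIs, where 1 UMI meets the limit. Genes 2-fold higher in OTM members (43) became 12 with TMM, 116 at 20 UMIs, 20 at 100 UMIs and 77 with a pseudocount of 5. Genes 2-fold lower (62) became 121, 200, 29 and 25 under the same settings, and 34 with S100 under 1%. Against C1q-low cells, genes 2-fold higher (185) became 415 at a C1q limit of 0.5%. Genes 2-fold lower (88) became 239 there, 140 at 0.1%, 178 with TMM, 158 with totals free of hemoglobin, ribosomal and mitochondrial genes, and 53 with no S100 limit. The last setting, equal weight for each cell, the removal of the 3 cells with P2ry12, Tmem119 and Sparc and the leave-one-out fits were added after seeing the data. With each OTM cell left out in turn, the higher count was 30 to 54, the lower count 62 to 74, and the list medians (log2) ran from -0.59 to -0.05 for osteoclast, -0.11 to 0.17 for hydrolase and -0.28 to 0.21 for membrane genes. Directions turned for Pf4 without OTM cell 2 (log2 -1.93 in a range of -1.93 to 1.57) and Saa3 without OTM cell 3 (-0.71 in a range of -0.71 to 5.53), each gene lying mainly in that cell, and with no S100 limit for Vcam1 (-0.80) and Hcar2 (0.090), and with TMM for H2-Ab1 (-0.13) and Cd74 (-0.35), where the median of all genes is -0.35. The cause was not tested for Vcam1 and Hcar2. The OTM values are limited by the number of cells, since 3 UMIs are 89.6 CPM over 5 cells.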
